A study of Mus musculus with 28 samples.

Results

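Nucleolar ribosome biogenesis genes were followed in liver tumours and in the liver tissue around them. The set holds 35 genes, taken by symbol from the 18182 genes of the deposited table, and all 35 were among the 14117 genes tested. The libraries come from c-Myc/Alb-cre transgenic mice, in which Cre recombinase is driven by the albumin promoter, a promoter of hepatocytes. All 28 libraries share this genotype, so no library of liver without the Myc transgene is compared here. The groups are 11 tumour libraries labelled Tu_F, 3 tumour libraries labelled Tu_M, 11 peritumour libraries labelled Pe_F and 3 peritumour libraries labelled Pe_M. The labels do not expand F and M and give no ages. A code in each title joins 1 tumour and 1 peritumour library, and this code was taken as the animal, which gives 14 pairs. The codes are written in 2 styles, the first in 12 libraries (F animals 1 to 3 and all M animals) and the second in 16 (F animals 4 to 11).

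Ribosomes are assembled in the nucleolus. RNA polymerase I transcribes the ribosomal RNA precursor there, small nucleolar ribonucleoproteins modify it (box C/D particles add methyl groups and box H/ACA particles convert uridine to pseudouridine), and assembly factors fold and trim it into the small and large subunits. Myc is known to raise the transcription of many of these genes, and enlarged nucleoli are a common feature of tumour cells. The 35 members were ordered by their known roles into 6 groups: RNA polymerase I and its factors (6 genes), box C/D proteins (3), box H/ACA proteins (4), small subunit factors (7), large subunit factors (9), and nucleolar scaffolds, chaperones and regulators (6).

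Library totals ran from 14777567 to 17576921 estimated counts, with 15141 to 16431 genes detected. Levels are given as CPM (counts scaled to a common library total), and comparisons of level between genes as TPM (transcripts scaled the same way), which are per length. Hepatocyte transcripts were abundant in all 28 libraries: 12 hepatocyte markers summed to between 21850 and 50520 CPM in tumours and between 18520 and 62870 CPM in peritumour tissue. These are bulk samples, so fewer cells of a type and less RNA per cell cannot be told apart. Myc had 274 to 659 CPM in tumours, with a median of 437, against 185 to 650 CPM in peritumour tissue, with a median of 340. The tissues overlapped, and Myc rose within animals by 0.34 ± 0.10 (SE) on the log2 scale (edgeR, adjusted p = 0.036). The sources used here do not say if reads of the transgene count toward Myc.

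By level, nucleophosmin (Npm1), a histone chaperone of the nucleolus, led the set with 1109 ± 693 TPM in tumours and 971 ± 462 TPM in peritumour tissue (SD, n = 14 each). The small H/ACA proteins Nop10 and Nhp2 followed. Nop10 averaged 404 ± 77.4 TPM in tumours and 354 ± 72.9 TPM in peritumour tissue, and Nhp2 382 ± 118 TPM and 322 ± 60.5 TPM in the same order (SD, n = 14 each). At the other end were Utp20, a large scaffold of the small subunit precursor (10.1 ± 4.15 TPM in tumours, 8.32 ± 2.5 TPM in peritumour tissue; SD, n = 14 each), and Polr1e, an RNA polymerase I subunit (12.4 ± 2.51 TPM in tumours, 11.1 ± 2.62 TPM in peritumour tissue; SD, n = 14 each). In counts, which also reflect transcript length, Npm1, Ncl, Mybbp1a and Nop56 were the 4 most counted members.

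Tumour was compared with peritumour tissue in 2 fits, because the paired libraries of an animal deviated together. Within animals, 15 of the 35 members rose in tumour and 0 fell, where 5.59% of all genes tested rose (789 of 14117) and 5.91% fell (835). The log2 fold changes of the 15 ran from 0.21 to 0.51, so that the largest was 1.42-fold. Over the whole set the log2 fold change was positive for 31 of 35 members with a median of 0.21, beside a median of -0.01 over all genes. Between animals, without the pairing, 1 of 35 members (Tcof1) rose, where 0.808% of all genes did, and the median was 0.22; DESeq2 called 2 members there, with 3.03% of all genes. Within animals, the count was 15 in DESeq2 (8.13% of all genes rose), 15 with RLE scaling (5.29%), 17 with library size alone (8.15%), 14 with no filter on low counts (3.7%) and 10 in F animals alone (4.26%). All 35 members had overlapping tumour and peritumour ranges, an overlap that was not counted over all genes. Leaving out 1 animal gave 8 to 17 members within animals, with the lowest counts without F replicate 8 (8 members), F replicate 10 (9) and M replicate 3 (9). In these fits 380, 501 and 644 of all genes rose, against 789 with all animals.

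**Figure D1:**
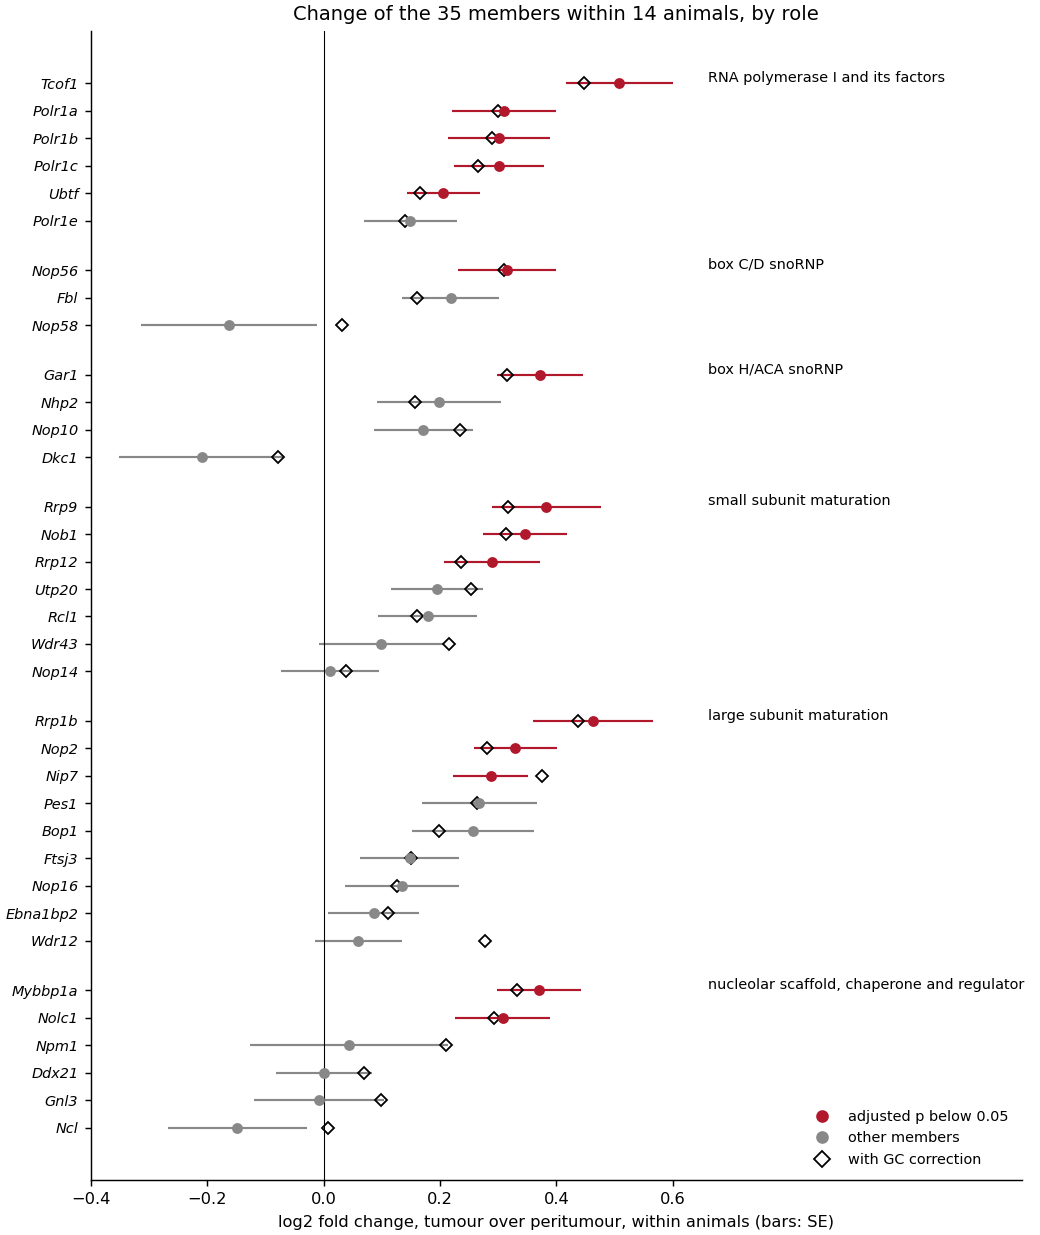
Log2 fold change of each of the 35 members, tumour over peritumour, within 14 animals, with its SE; red points have an adjusted p below 0.05 (edgeR), grey points do not, and open diamonds are the same fit with a correction for transcript GC content. The red points lie between 0.21 and 0.51, 5 of the 6 RNA polymerase I genes are among them, and the grey points left of 0 are those of Dkc1, Nop58, Ncl and Gnl3.

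The RNA polymerase I group held the most risen members for its size, 5 of 6, with a median log2 fold change of 0.30 within animals. Tcof1 encodes treacle, which recruits the polymerase and its factors to ribosomal DNA (gene ID 21453, chromosome 18, 60813738 to 60848983, GRCm38). It had 45.3 to 132 CPM in tumours, with a median of 65.9, against 31.5 to 82.7 CPM in peritumour tissue, with a median of 46.3. Tumour was the higher library in 13 of 14 pairs, and the one exception was F4 (49.0 CPM in tumour, 53.7 CPM in peritumour tissue). The highest tumour library was that of F2, which also had the highest sum of 6 cholangiocyte markers (1942 CPM, against a median of 69.0 CPM over tumours and 123 CPM over peritumour libraries), and their part in the value was not tested. Its log2 fold change was 0.51 ± 0.09 (SE) within animals (edgeR, adjusted p = 0.0035) and 0.53 ± 0.13 (SE) without pairing (edgeR, adjusted p = 0.0415).

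Polr1a, the largest catalytic subunit of RNA polymerase I, had 96.8 to 269 CPM in tumours (median 134) and 68.2 to 189 CPM in peritumour tissue (median 108). Polr1b, the second catalytic subunit, had 65.8 to 147 CPM in tumours (median 99.3) and 52.1 to 126 CPM in peritumour tissue (median 82.6). Polr1c, a subunit shared with RNA polymerase III, had 36.6 to 67.0 CPM in tumours (median 51.1) and 30.3 to 58.1 CPM in peritumour tissue (median 40.6). All 3 rose by nearly the same amount, with log2 fold changes of 0.31 ± 0.09, 0.30 ± 0.09 and 0.30 ± 0.08 (SE; edgeR, adjusted p = 0.0352, 0.0349 and 0.0206), and Polr1c was higher in tumour in 14 of 14 pairs. Ubtf, the upstream binding factor that keeps ribosomal DNA open, varied least of the members among tumours (SD 0.21 log2 units). It had 114 to 193 CPM in tumours (median 153) and 98.9 to 193 CPM in peritumour tissue (median 124), and rose by 0.21 ± 0.06 (SE; edgeR, adjusted p = 0.0445). Polr1e did not pass (0.15 ± 0.08, SE; edgeR, adjusted p = 0.234).

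Each snoRNP class had 1 risen member, and the catalytic proteins were not among them. Nop56, a box C/D core protein, had 194 to 372 CPM in tumours (median 282) and 144 to 340 CPM in peritumour tissue (median 227), and rose by 0.32 ± 0.08 on the log2 scale (SE; edgeR, adjusted p = 0.025). Its partner Nop58 did not pass (-0.16 ± 0.15, SE; edgeR, adjusted p = 0.506), with 21.6 to 165 CPM in tumours and 31.8 to 183 CPM in peritumour tissue. Fibrillarin (Fbl), the methyltransferase of the same particle, had 0.22 ± 0.08 (SE; edgeR, adjusted p = 0.0987). In the box H/ACA group, Gar1 (gene ID 68147, chromosome 3, 129824912 to 129831396, GRCm38) had 18.4 to 47.9 CPM in tumours (median 33.6) and 17.9 to 35.9 CPM in peritumour tissue (median 23.8), was higher in 13 of 14 pairs, and rose by 0.37 ± 0.07 (SE; edgeR, adjusted p = 0.0067). Dyskerin (Dkc1), the pseudouridine synthase, had the lowest log2 fold change of the whole set, -0.21 ± 0.14 (SE; edgeR, adjusted p = 0.347), with 17.1 to 124 CPM in tumours and 25.6 to 113 CPM in peritumour tissue. Nhp2 and Nop10 had 0.20 ± 0.11 and 0.17 ± 0.08 (SE; edgeR, adjusted p = 0.233 and 0.195).

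Of the 7 small subunit factors, 3 rose and all 7 had positive log2 fold changes. Rrp9, which binds the U3 small nucleolar RNA, had 23.3 to 47.5 CPM in tumours (median 34.3) and 18.2 to 37.5 CPM in peritumour tissue (median 25.0), and rose by 0.38 ± 0.09 on the log2 scale (SE; edgeR, adjusted p = 0.0174). Nob1, the endonuclease that makes the final cut of the small subunit RNA, had 26.9 to 55.7 CPM in tumours (median 35.6) and 18.5 to 37.8 CPM in peritumour tissue (median 26.4). It rose by 0.35 ± 0.07 (SE; edgeR, adjusted p = 0.0083) and was higher in tumour in 13 of 14 pairs, as Rrp9 was. Rrp12, an export factor known from yeast, had 27.9 to 75.7 CPM in tumours (median 43.5) and 21.0 to 59.4 CPM in peritumour tissue (median 33.8), and rose by 0.29 ± 0.08 (SE; edgeR, adjusted p = 0.0333). Utp20, Rcl1, Wdr43 and Nop14 did not pass, with log2 fold changes from 0.20 to 0.01.

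Of the 9 large subunit factors, 3 rose and all 9 had positive values. Rrp1b, a chromatin-bound nucleolar protein (gene ID 72462, chromosome 17, 32036162 to 32062865, GRCm38), had the second largest change of the set. It had 49.1 to 149 CPM in tumours (median 82.8) and 38.9 to 125 CPM in peritumour tissue (median 53.9), was higher in tumour in 14 of 14 pairs, and rose by 0.46 ± 0.10 on the log2 scale (SE; edgeR, adjusted p = 0.0112). Nop2, a ribosomal RNA cytosine methyltransferase, had 80.7 to 183 CPM in tumours (median 115) and 68.2 to 149 CPM in peritumour tissue (median 85.9), and rose by 0.33 ± 0.07 (SE; edgeR, adjusted p = 0.0097). Nip7, an assembly factor of the large subunit in yeast, had 24.2 to 71.3 CPM in tumours (median 36.7) and 21.4 to 56.5 CPM in peritumour tissue (median 28.6), and rose by 0.29 ± 0.06 (SE; edgeR, adjusted p = 0.0121). The PeBoW complex, which is needed for large subunit processing, did not pass with any of its 3 proteins: Pes1 had 0.27 ± 0.10, Bop1 0.26 ± 0.11 and Wdr12 0.06 ± 0.07 (SE; edgeR, adjusted p = 0.0865, 0.12 and 0.629).

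The scaffold and regulator group was split. Mybbp1a, a nucleolar Myb-binding protein (gene ID 18432, chromosome 11, 72441378 to 72451550, GRCm38), had 277 to 675 CPM in tumours (median 392) and 218 to 491 CPM in peritumour tissue (median 288). All 14 pairs were higher in tumour, and the log2 fold change was 0.37 ± 0.07 (SE; edgeR, adjusted p = 0.0054). Nolc1, a chaperone of snoRNPs also called Nopp140, had 137 to 323 CPM in tumours (median 189) and 104 to 285 CPM in peritumour tissue (median 151), and rose by 0.31 ± 0.08 (SE; edgeR, adjusted p = 0.024). The other 4 had log2 fold changes near or under 0 and did not pass: Npm1 0.04 ± 0.17, Ddx21, an RNA helicase, 0.00 ± 0.08, Gnl3 (nucleostemin) -0.01 ± 0.11 and nucleolin (Ncl) -0.15 ± 0.12 (SE; edgeR, adjusted p = 0.891, 0.999, 0.972 and 0.437).

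**Figure D2:**
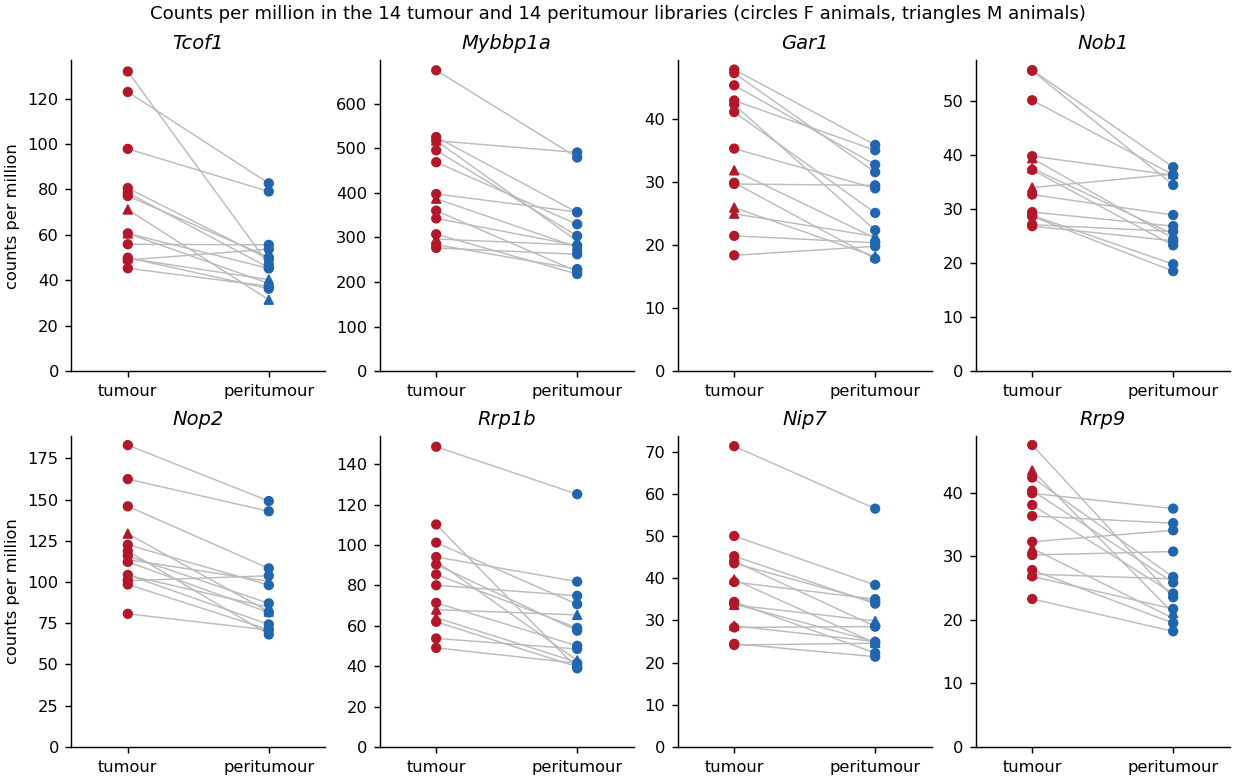
CPM of the 8 members with the smallest adjusted p within animals, in 14 tumour (red, left) and 14 peritumour (blue, right) libraries; lines join the libraries of an animal, circles are F animals and triangles M animals. Most lines slope down to the right, and the ranges of the tissues overlap for each gene.

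The calls differed in how much they rested on single animals. Tcof1, Mybbp1a, Gar1, Nob1, Nop2, Rrp1b, Nip7 and Rrp9 stayed past the threshold in 14 of 14 fits that each left out 1 animal. Polr1c did so in 13, Nop56 in 11, Nolc1 in 10, Polr1a and Polr1b in 7 each, Rrp12 in 6 and Ubtf in 5. Within the 8 animals of the second code style 9 members rose, where 3.42% of all genes did. Within the 6 animals of the first style 0 members passed in edgeR (0% of all genes), while 8 had an unadjusted p under 0.05 and 34 had positive values. Of all genes, 1199 of 13663 had an unadjusted p under 0.05 in that fit.

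Transcript GC content moved with these changes. The longest protein-coding transcripts of the 15 risen members had a median GC content of 53.7% (45.4% to 59.8%), and those of the other 20 members 47.5% (40.4% to 58.2%), beside 50.2% for all genes tested. Over the 35 members, GC content and log2 fold change within animals had a Pearson correlation of 0.78, and over all genes 0.30. With the log2 fold changes of the M animals the values were 0.15 over members and -0.03 over all genes. The trend also differed between single animals, where the members' correlation ran from -0.13 in M3 to 0.76 in F7. These are correlations across genes, which are not independent replicates and share all libraries. All genes split into 5 equal groups by GC content had medians of -0.18 in the lowest group (6 members, 0 risen) and 0.09 in the highest (5 members, 3 risen), and the members' medians there were -0.05 and 0.37. In each of the 5 groups the members' median lay above that of all genes.

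After each library's own trend on GC content was taken out, 13 of the 35 members rose within animals and 0 fell (edgeR), where 5.95% of all genes rose, and 34 of 35 values were positive with a median of 0.23. Of the 15 members, 12 remained past the threshold. Rrp9, Rrp12 and Ubtf did not, with log2 fold changes of 0.32, 0.24 and 0.17 (0.38, 0.29 and 0.21 without the correction; edgeR, adjusted p = 0.0509, 0.0572 and 0.0992), and Utp20 entered (0.25 ± 0.08, SE; edgeR, adjusted p = 0.0498). Tcof1 had 0.45 ± 0.10 and Nip7 0.38 ± 0.07 (SE) in this fit. The 5 members that the correction moved most were those with the lowest GC contents: Wdr12 had 0.28 on the log2 scale (0.06 without the correction), Nop58 0.03 (-0.16), Npm1 0.21 (0.04), Ncl 0.01 (-0.15) and Dkc1 -0.08 (-0.21). None of these 5 passed in edgeR with or without it. Without pairing, 0 members passed with this correction in edgeR and 14 had an unadjusted p under 0.05, where 0.326% of all genes rose. Of all genes, 2499 of 14117 had an unadjusted p under 0.05 in that fit.

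**Figure D3:**
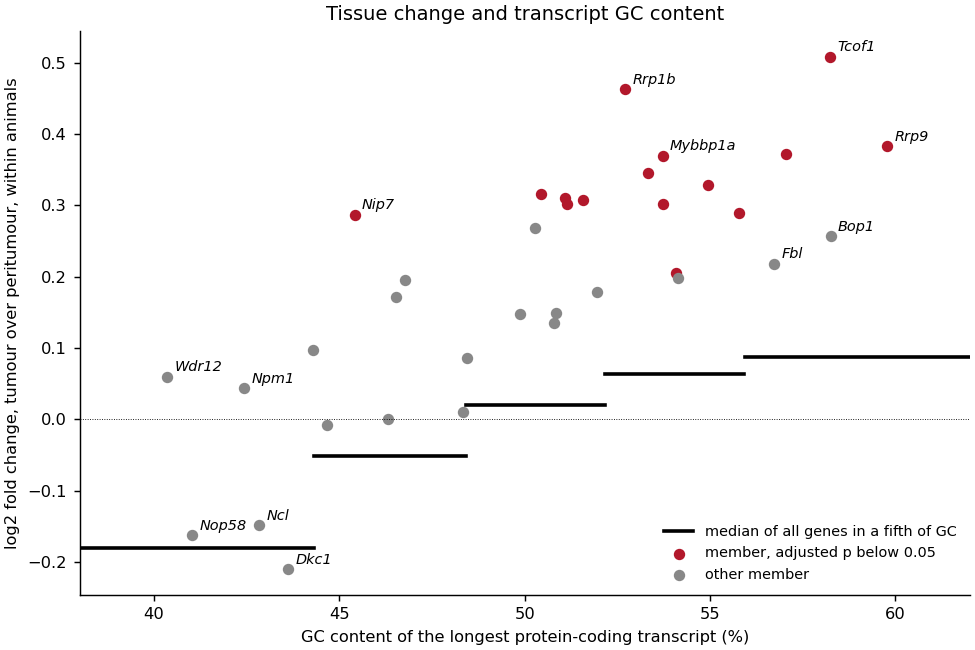
Log2 fold change within animals of the 35 members against the GC content of their longest protein-coding transcript; black lines are medians of all genes in 5 equal groups of GC content, drawn from 38% to 62%. Members with a higher GC content have higher log2 fold changes, and so have all genes, from a median of -0.18 in the lowest group to 0.09 in the highest.

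Ncl, Npm1, Nop58 and Dkc1 differed from the other members in how they varied between libraries. Their SD of log2 level over the 14 tumours was 0.75, 0.85, 0.83 and 0.85, against a median of 0.50 over all genes tested. Their levels moved with the style of the library code. Nop58 had a median of 34.2 CPM in second-style tumours and 106 CPM in first-style tumours, and 42.4 CPM and 94.9 CPM in the peritumour libraries of the second and first style. Dkc1 had medians of 27.4 CPM (second style) and 85.8 CPM (first style) in tumours, and 31.5 CPM and 82.8 CPM in peritumour tissue. Ncl had medians of 380 CPM (second style) and 1030 CPM (first style) in tumours, and 455 CPM and 840 CPM in peritumour tissue. Mki67, a proliferation gene outside the set that was chosen after its values were seen, had medians that moved the same way. They were 25.5 CPM (second style) and 156 CPM (first style) in tumours, and 26.6 CPM and 174 CPM in peritumour tissue. Its highest second-style peritumour library had 172 CPM. The sum of 26 cell cycle genes overlapped between styles, with 1375 to 2724 CPM in second-style and 1474 to 2838 CPM in first-style tumours. Mybbp1a did not move with the code style in this way, with medians of 414 CPM (second style) and 392 CPM (first style) in tumours.

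The 4 genes also have some of the lowest GC contents of the set (41.0% for Nop58, 42.4% for Npm1, 42.8% for Ncl and 43.6% for Dkc1). Over the 35 members the log2 difference between second and first style had a Pearson correlation of 0.72 with GC content, and over all genes 0.47. Low GC content did not go with a large style difference in every member. Wdr12, with the lowest GC content of the set (40.4%), differed by -0.12 between the styles. The 4 genes differed by -1.155 (Dkc1) to -0.978 (Ncl). The M animals are all of the first style, so style and letter overlap. In animal F11, the pair with the largest GC trend (Pearson correlation of 0.57 over all genes between GC content and the tumour over peritumour difference), Dkc1, Nop58, Npm1 and Ncl differed by -1.74, -1.69, -1.26 and -1.13 on the log2 scale. In the same animal Bop1, with a GC content of 58.2%, differed by 1.18. The part of GC content in the levels of these genes was not tested beyond the fits with the correction.

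**Figure D4:**
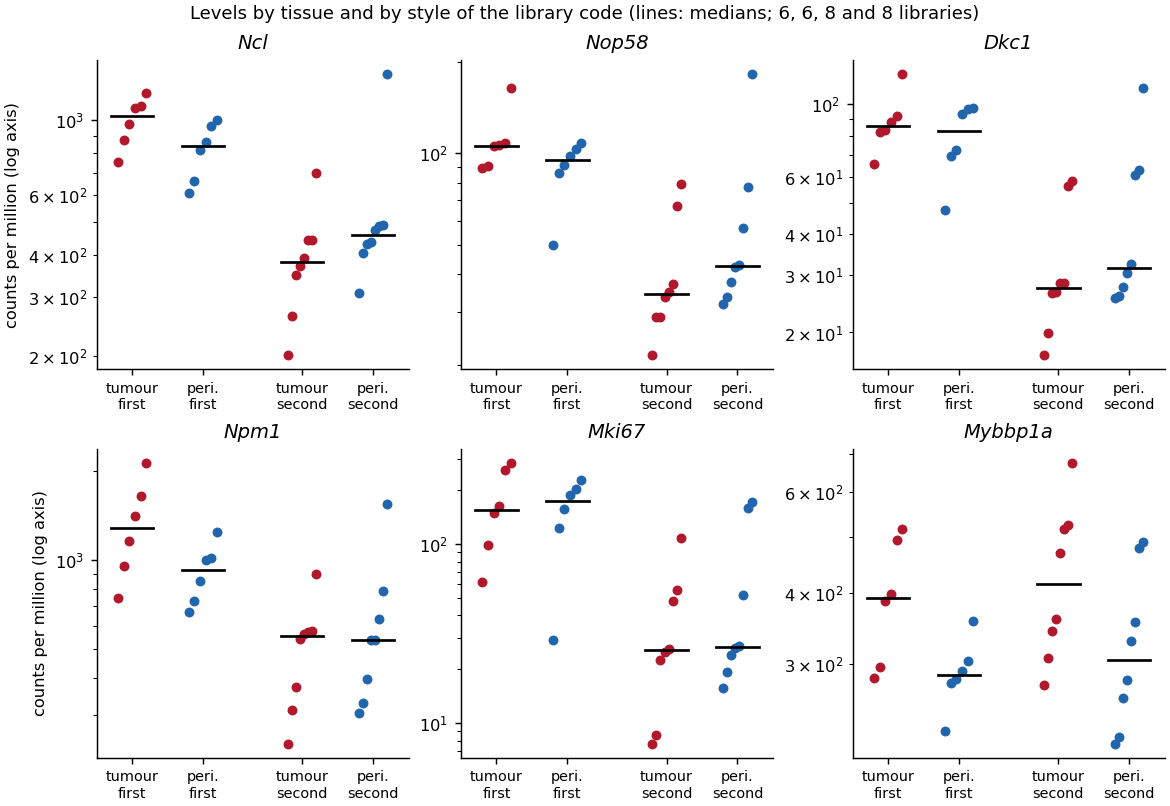
CPM on a log axis of 4 members that moved with the code style, of Mki67 and of Mybbp1a, in tumour (red) and peritumour (blue) libraries of each style; points are libraries and lines are medians. The second-style medians of Ncl, Nop58, Dkc1, Npm1 and Mki67 lie below the first-style ones in both tissues, and those of Mybbp1a do not.

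Animals differed in how far the set moved, and the 4 with the largest medians were the 4 with the largest differences of Myc. After scaling, the median log2 difference of the 35 members between the tumour and peritumour library of an animal was above 0 in 13 of 14 animals. It was largest in M3 (0.58, with 35 of 35 members higher), F9 (0.45, 34 members), F11 (0.43, 24 members) and F10 (0.40, 32 members), where Myc differed by 0.93, 0.79, 0.68 and 0.74. It was smallest in F2 (-0.06, 15 members), F6 (0.01, 20 members), F4 (0.03, 20 members) and F5 (0.03, 20 members), where Myc differed by -0.04, -0.03, -0.32 and 0.36. The tumour of F2 had the highest TMM factor (1.36, against 1.04 for its peritumour library). By CPM its members summed to 7123 in tumour and 5185 in peritumour tissue, and Myc had 622 and 488. Myc and the members share the factor of each library, and the part of this scaling in these values was not tested. The medians over all genes stayed between -0.07 and 0.03 in every animal.

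**Figure D5:**
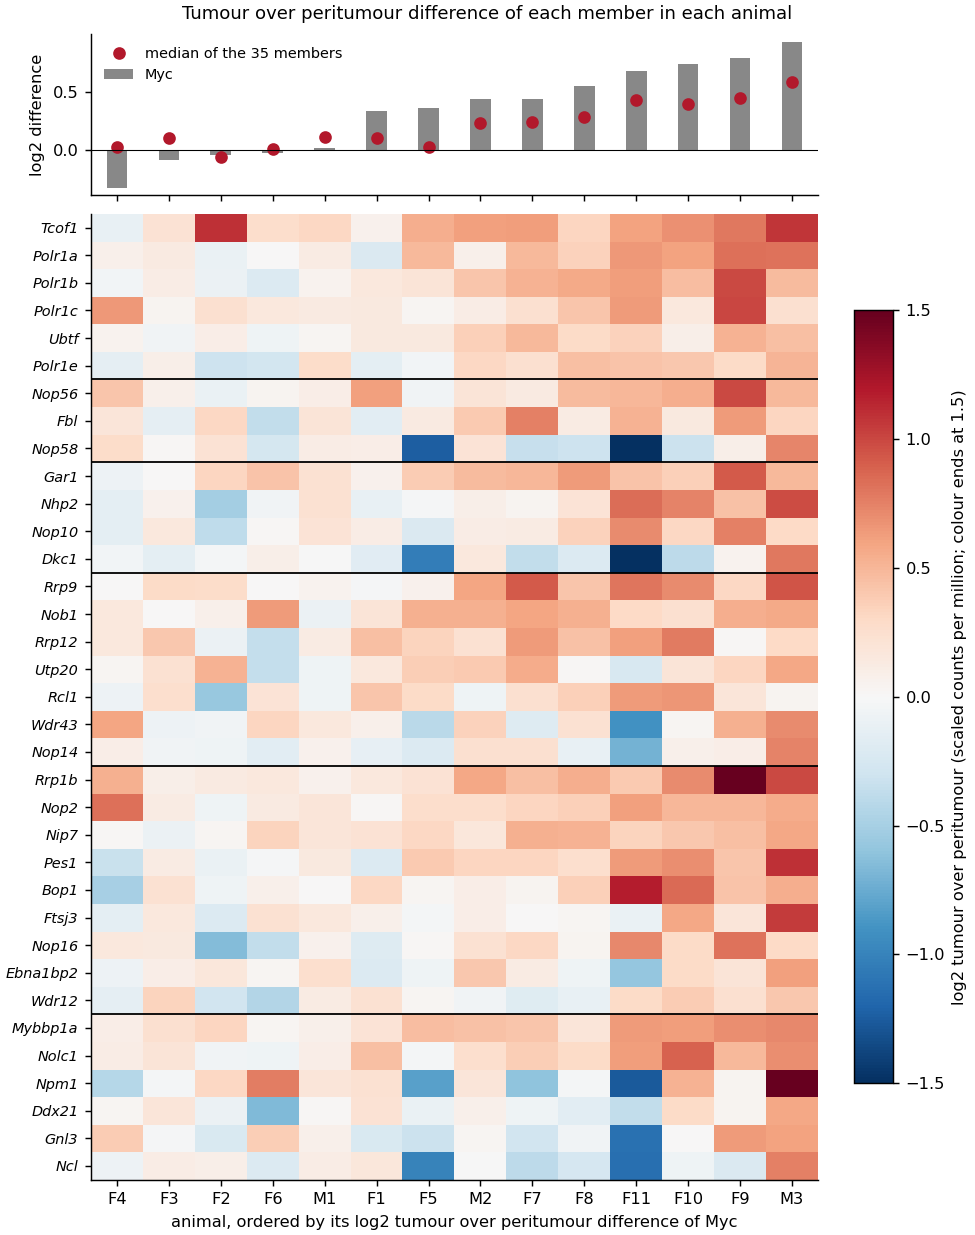
Log2 difference between tumour and peritumour library for each member (rows, by role) in each of 14 animals, ordered by the difference of Myc; the upper panel gives Myc (bars) and the median of the 35 members (points). The 4 highest medians, 0.40 to 0.58, occur in the 4 animals with the largest Myc differences, and blue cells gather in Nop58, Dkc1, Npm1 and Ncl of F5 and F11.

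To ask whether members followed Myc beyond the mean tissue difference, the level of Myc in each library was added to the within-animal fit. The slope is the log2 change of a gene per log2 unit of Myc. It was positive for 30 of 35 members with a median of 0.41, beside a median of -0.04 over all genes. In edgeR 0 members passed the adjusted threshold, as did 0% of all genes, while 18 members and 2055 of all genes had an unadjusted p under 0.05. The steepest were Pes1 (0.86 ± 0.17, SE; edgeR, adjusted p = 0.085), Nhp2 (0.86 ± 0.21), Bop1 (0.83 ± 0.21) and Polr1b (0.74 ± 0.16). DESeq2 called 7 members, all with positive slopes, where it called 1.71% of all genes with positive slopes: Pes1, Polr1b, Mybbp1a, Nhp2, Polr1a, Nolc1 and Bop1. Pes1 and Bop1 belong to the PeBoW complex named above, and neither passed in the mean tissue comparison. By role, 5 of 6 RNA polymerase I genes and 6 of 9 large subunit factors were at an unadjusted p under 0.05, as were 3 of 4 box H/ACA proteins, 1 of 3 box C/D proteins, 1 of 7 small subunit factors and 2 of 6 scaffolds and regulators. Differences between these groups were not tested.

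Across animals the set also ran with Myc in each tissue. Over the 14 tumour libraries the Pearson correlation of log2 level with that of Myc had a median of 0.61 over the members and -0.03 over all genes, and 33 of 35 were positive. Over the 14 peritumour libraries the medians were 0.61 and -0.04, and 35 of 35 were positive. Nolc1, the highest in tumours, had r = 0.87 (permutation p = 8e-05, adjusted p = 0.212 over 14116 genes) and rho = 0.78 (permutation p = 0.0016), and r = 0.80 without the 2 libraries farthest from the median of Myc. Nop16, a large subunit factor and the highest in peritumour tissue, had r = 0.87 (permutation p = 9e-05, adjusted p = 0.0454 over 14116 genes) and rho = 0.88 (permutation p = 0.0001), and r = 0.86 without the 2 farthest libraries. In tumours its r was 0.41. Polr1b also passed in peritumour tissue (r = 0.86, permutation p = 0.00015, adjusted p = 0.0471). These were 2 of 35 members by r, where 0.361% of all genes passed. By rho 0 members passed in peritumour tissue, where 3 of all genes did (permutation test, adjusted p = 0.0614 for Nop16 and 0.108 for Polr1b). In tumours 0 members passed by r or rho (0% of all genes by r).

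Within code styles the members' median correlation with Myc was 0.76 in the 6 first-style and 0.49 in the 8 second-style tumour libraries, and 0.76 and 0.70 in the peritumour libraries of the same styles. Without the 2 tumour libraries farthest in Myc (F replicates 3 and 10) the tumour median was 0.46. The lowest values in tumours were those of Nop58 (-0.15), Dkc1 (-0.09) and Ncl (0.08). With the GC correction all 35 members were positive in both tissues, with medians of 0.64 in tumours and 0.57 in peritumour tissue. Slopes on Myc fitted over the tumour libraries alone were positive for 34 of 35 members with a median of 0.46, and over the peritumour libraries alone for 35 of 35 with a median of 0.43. In these fits 0 members passed in edgeR, where 0% and 0.0073% of all genes did, and 23 and 21 members had an unadjusted p under 0.05. Of all genes, 1414 of 13818 and 2720 of 13693 had an unadjusted p under 0.05 in the same fits. The same slope over all 28 libraries called 21 members, where 5.72% of all genes had a called positive slope, but that fit treats both libraries of an animal as independent.

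Members also ran with each other. Over the 595 pairs of members the median Pearson correlation of log2 levels was 0.47 among tumours and 0.58 among peritumour libraries, beside -0.01 over all pairs of genes in either tissue. Nop58, Dkc1 and Ncl stood apart in tumours, with median correlations of -0.27, -0.25 and -0.08 with the other members, while Nop58 and Dkc1 had 0.98 with each other. Among genes outside the set, the 5 whose pattern over the 28 libraries was most like the members' mean (log2 levels, each gene centred and scaled) were Aatf (r = 0.95), Utp4 (0.94), Pa2g4 (0.91), Tomm20 (0.89) and Gemin5 (0.88). Aatf and Utp4 are themselves small subunit assembly factors in human cells.

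Further genes of the pathway were counted by role, beside the 5.59% of all genes that rose and the 5.91% that fell. Of 16 other RNA polymerase I machinery genes tested, 4 rose and 0 fell within animals (edgeR), led by the shared polymerase subunits Polr2h (0.43 ± 0.09) and Polr2f (0.34 ± 0.08; log2 fold change ± SE). Of 42 other small subunit factors 6 rose and 0 fell, among them Rrp7a (0.32 ± 0.07) and Aatf (0.28 ± 0.08). Of 41 other large subunit factors 7 rose and 0 fell, among them Urb1 (0.52 ± 0.10) and Pelp1 (0.37 ± 0.08). Of 14 other snoRNP and RNA modification genes 2 rose and 0 fell, Ruvbl1 (0.27 ± 0.07) and Snu13 (0.35 ± 0.09). The medians of the 4 lists were 0.10, 0.15, 0.13 and 0.15, beside -0.01 over all genes. The 63 tested genes that the deposited table annotates to the KEGG pathway of ribosome biogenesis and that are not members had 8 risen and 3 fallen genes, with a median of 0.06, and its share of fallen genes was near that of all genes.

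Ribosomal proteins are assembled by these factors, and related genes were counted in the same way, beside the 5.59% of all genes that rose and the 5.91% that fell. Of 79 cytosolic ribosomal protein genes, 13 rose and 0 fell within animals (edgeR), 78 of 79 log2 fold changes were positive, and the median was 0.18. Rpl24 had 541 to 937 CPM in tumours (median 658) and 421 to 672 CPM in peritumour tissue (median 537), and rose by 0.38 ± 0.09. Rpl35a rose by 0.38 ± 0.08 (SE). Ribosomal protein genes have many near-identical pseudogenes, so the counts given to each gene are uncertain. Of 28 polyamine and nucleotide synthesis genes 2 rose and 0 fell, a share near that of all genes: Adsl (0.41 ± 0.11), of purine synthesis, and Impdh2 (0.30 ± 0.09), of guanine nucleotide synthesis. Of 26 cell cycle genes 3 rose and 0 fell, including the replication licensing genes Mcm2 (0.36 ± 0.07) and Cdt1 (0.48 ± 0.12).

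Markers of cell types changed between the tissues as well. Within animals 6 of 12 hepatocyte markers fell and 0 rose, with Cyp2e1 at -1.41 ± 0.20 and Tat at -0.79 ± 0.14 (log2 fold change ± SE; edgeR). Of 8 Kupffer cell markers 4 fell, of 7 sinusoidal endothelial markers 2 fell, of 8 stellate cell markers 3 fell and 1 rose, and of 8 T and NK cell markers 1 fell. None of 6 cholangiocyte, 5 B and plasma cell, 8 erythroid precursor and 8 granulocyte precursor markers passed in edgeR, and 1, 0, 0 and 0 of them had an unadjusted p under 0.05. Of all genes, 3971 of 14117 were at that level in this fit, and 5.59% rose and 5.91% fell after adjustment. A marker that did not pass is not shown to be unchanged. The 8 granulocyte precursor markers summed to 8.06 to 472 CPM in tumours and 11.2 to 550 CPM in peritumour tissue, with high values in both libraries of F2, F5 and F6 and in the tumour of F4. Without F2, F5 and F6, 18 of the 35 members rose within animals (edgeR), where 7.01% of all genes did. The part of the other cell types in the change of the members was not tested.

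The letters F and M were compared in the same model. In the 11 F animals 10 members rose and 0 fell, where 4.6% of all genes rose, and the median log2 fold change was 0.19. The count was 4 without F replicate 8, 5 without F replicate 10, 6 without F replicate 7, and 6 without F replicate 9, and it was 4 with the GC correction. The risen genes of the whole table fell in number as well, to 299, 440, 408, 328 and 525 in these fits, against 650 with all animals and no correction. In the 3 M animals 0 members passed in edgeR and 0 in DESeq2, where edgeR called 0% of all genes and DESeq2 called 99 of 14117 (15 higher, 84 lower). Of the 35, 13 had an unadjusted p under 0.05 in edgeR, as had 1361 of the 14117 genes, and 34 were positive, with a median of 0.34. Tcof1 had 0.67 ± 0.20 in M animals and 0.47 ± 0.10 in F animals (log2 fold change ± SE). The difference of the effects was itself tested: 0 members passed in edgeR (0% of all genes) and 0 in DESeq2, which called 1 of all genes. An unadjusted p under 0.05 in edgeR was found for 3 members and for 1001 of the 14117 genes. The smallest of these p-values was that of Ebna1bp2, a large subunit factor, at 0.43 ± 0.16 (M minus F, SE, edgeR, adjusted p = 0.689). The largest difference of the 3 was that of Dkc1, at 0.66 ± 0.31 (SE). All M animals are of the first code style, and F animals 4 to 11 are of the second. Letter and style were therefore not separated in this fit.

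Between animals, 0 members differed between Tu_M and Tu_F tumours or between Pe_M and Pe_F tissue in edgeR or DESeq2. In edgeR 0.0283% of all genes were called in each comparison (4 genes), and DESeq2 called 66 and 6 of 14047 genes. In edgeR 0 members had an unadjusted p under 0.05 in either. Of the 14117 genes, 1389 were at that level between the tumours and 215 between the peritumour tissues. The median log2 difference of Tu_M over Tu_F was 0.19 with all animals and -0.04 without M replicate 3, so its direction rested on that animal. For Pe_M over Pe_F it was 0.02, but -0.02 within the first code style and -0.10 when libraries were scaled by their totals alone, a scaling that moved the median of all genes to -0.13.

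The canonical E-box CACGTG, the sequence bound by Myc with its partner Max, was looked for in the promoters that RefSeq gives for 30 of the 35 members (GRCm38.p6). For each gene the most upstream start site was used. Bases just after that site were found in an annotated transcript of the gene for 20 of the 30 members. Motif counts and distances depend on these start sites. In the 250 bases before the start site, 1 of 30 members (3.33%) held it, against 8.17% of the promoters of 11218 tested genes; the motif reads the same on both strands. With the variant CACGCG added, searched on both strands, 7 of 30 members (23.3%) had a match, against 20.6% of tested genes. Of the 13 risen members with a promoter 6 had such a match, and of the other 17 members 1 had. Extending the window to 50 bases after the start gave 5 members with CACGTG (Mybbp1a, Nop2, Pes1, Utp20 and Wdr43; 16.7%), against 9.88% of tested genes. A match is a description of letters and not of binding.

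Both sequences here are shown because their genes rose and they hold these motifs: Nop2 has the one CACGTG found before a start site, and Mybbp1a, chosen after its values were seen, has overlapping CACGCG matches on both strands. Motifs are in capitals, both are on the + strand of GRCm38.p6, and the motif of Nop2 begins 60 bases before the start site (chr6:125131764-125131863), those of Mybbp1a 115 and 111 bases before it (chr11:72441167-72441266).
Nop2: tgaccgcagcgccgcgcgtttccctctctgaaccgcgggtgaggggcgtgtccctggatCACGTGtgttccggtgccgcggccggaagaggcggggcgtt
Mybbp1a: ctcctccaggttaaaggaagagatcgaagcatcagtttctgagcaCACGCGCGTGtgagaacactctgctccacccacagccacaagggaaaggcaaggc

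Some members share their loci with other RNAs. In the GENCODE M21 annotation, 6 of 35 members (17.1%) hold small nucleolar RNA genes inside their span, 19 in all, against 1.59% of annotated tested genes: Nop56 (5), Nop58 (4), Ncl, Wdr43 and Gnl3 (3 each) and Dkc1 (1). Nop56 alone of these 6 was among the 15 risen members. Exons of 13 members overlap those of another gene on the opposite strand, for example Nop56 with Idh3b, Rrp9 with Parp3, Rrp1b with Hsf2bp and Mybbp1a with Spns2. The sources do not state that strand was kept, so reads from the overlapping stretches cannot be told apart.

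The authors' deposited table gives its own log2 fold change of tumour over peritumour. Of the members, 32 of 35 were positive in the authors' deposited table, with a median of 0.28, from -0.12 for Dkc1 to 0.59 for Tcof1. Of all genes with a value there, 10485 of 17346 were positive, with a median of 0.08. All 35 members had a q-value below 0.05 in the authors' deposited table, as had 66% of all genes with a value there. The header of these q-values names DEGseq, not DESeq2. The sources used here do not say how that test treated replicates, so this count is not comparable with those of the fits above.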

How the data were processed

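Messenger RNA of 28 liver libraries was selected with oligo(dT) beads and primed with random hexamers, per the labels' protocols. Tools, per the submitters' processing notes and with no role stated, were RSEM 1.2.12, HISAT2 2.0.4, DESeq2 1.4.5 and Bowtie2 2.2.5. Values deposited by the authors are estimated counts, of which 8.06% are not whole, and TPM values, per the file headers. The authors' deposited table also holds log2 fold changes and q-values; its 28 FPKM columns and 9 columns of a group without samples here were not used.

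Estimated counts were rounded. edgeR 4.0.16 (R 4.3.3) fitted quasi-likelihood models (TMM factors 0.809 to 1.36, filterByExpr, robust), with Benjamini-Hochberg adjustment over all genes tested and a threshold of 0.05. Without pairing, the letter and the code style were covariates; within animals, the animal was a block. The pairing comes from the title codes: deviations of both libraries of an animal from their group means correlated at 0.135 to 0.61 in each of the 14 pairs, and in 10 of 14 animals the tumour library was closest to the peritumour library of the same animal. Log2 levels used a prior count of 2. Pair counts and differences per animal use TMM-scaled values; CPM values use library totals. Correlations were given 100000 permutations, adjusted over all genes.

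GC content is that of the longest protein-coding transcript in GENCODE M21 (98.1% of tested genes); the correction took a lowess trend (span 0.3) of each library as an offset. It was chosen after seeing the data, as were the slopes on Myc in 1 tissue alone and the wider promoter window. Fits were tested on simulated data. The members and gene lists were chosen with earlier results of these data known. Members were named where they passed in a tissue comparison, led or ended the set by level or change, or had the smallest p in another comparison; other members are given by role. From other lists up to 2 risen and 2 fallen genes were taken by p. Alternatives were RLE scaling, library size alone, no filter on low counts, DESeq2 1.42.0, leaving out each animal, and subsets by letter, style or blood precursor markers. Separate titles are the only sign that animals were sampled independently, so p-values measure the spread between these libraries, which may be technical in part.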

Additional observations from a re-analysis of the deposited data

How the results depend on the processing

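Within animals, the 15 risen members became 14 to 18 with other scalings, no filter on low counts, DESeq2 or without F replicates 2, 5 and 6, and 13 with the GC correction. The count was 10 in F animals alone, 9 in the second code style alone, 0 in the first code style alone (edgeR, 8 at an unadjusted p under 0.05, as were 1199 of 13663 genes) and 1 with no replicate block. Library size alone moved the split of all called genes to 1151 higher and 677 lower, against 789 and 835. Without pairing, where 1 member passed, the edgeR count was 0 with library size alone, with no filter, with the GC correction, in the first and second code style alone and in F animals alone (17, 16, 14, 2, 10 and 10 at an unadjusted p under 0.05). Of all genes 2751 of 14117, 3104 of 18145, 2499 of 14117, 832 of 13663, 1873 of 13055 and 2105 of 13084 were at that level in the same order. The 2 members of the first code style were near the share of all genes. The count without pairing was 2 in DESeq2, 3 without F replicates 2, 5 and 6, and 15 with the animal as replicate block. The F effect gave 10 members, 0 within the first code style and 4 with the GC correction. The slope on Myc within animals gave 0 members in edgeR and 7 in DESeq2. The slope across animals gave 21 members over all libraries and 0 in tumour or in peritumour libraries alone. The promoter count was 1, 7 with CACGCG added, and 5 with 50 bases after the start included. The cause of these shifts was not tested. The subsets also hold fewer animals, and the part of this in the counts was not tested either.

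Leaving out each animal in turn gave 8 to 17 members within animals, 0 to 1 without pairing, 4 to 14 for the F effect and 17 to 24 for the slope across animals; for the M effect, the difference between M and F, both comparisons between letters and the slope within animals it gave 0 to 0. No log2 fold change of a called member changed sign under any of these settings. The number of M animals, 3, limits what the M comparisons can show.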
